A study of Homo sapiens with 2 samples.

Results

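The start codon window of an mRNA was taken as the stretch of 50 nt on either side of the annotated start codon, counted along the spliced transcript, and its cytosines were followed in RNA bisulfite sequencing (RNA BS-Seq) of 2 human cell lines. One canonical transcript was used for each protein-coding gene of the GENCODE annotation on GRCh37 (hg19), and the start codon could be read for 19432 of 19540 transcripts. A cytosine belonged to the window when it lay on the strand of the transcript and its coverage, the sum of unconverted and converted reads, was at least 10. In MCF10A, 89965 of 1584002 kept sites fell in the window, in 4806 transcripts. In MDA-MB-468, 57530 of 1271253 kept sites did, in 3296 transcripts. Either line covered 104644 window sites in 5482 transcripts, and both lines covered 42851 of these sites. Distances run from -50 to -1 upstream, the start codon takes positions 1 to 3, and the coding sequence runs from 4 to 53.

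MCF10A is a line of normal mammary epithelium, and MDA-MB-468 is a breast cancer line. Both came from ATCC, and the labels name no treatment. The labels give DMEM as the medium of both, whereas the study's methods give DMEM/F12 with horse serum, EGF, hydrocortisone and insulin for the MCF10A culture and RPMI with FBS for the MDA-MB-468 culture, so that medium and cell line cannot be told apart. Each line gave 1 library of poly(A)-selected RNA that was treated with sodium bisulfite at 60 degrees for 8 h. Bisulfite turns unmethylated cytosine into uracil and leaves 5-methylcytosine (m5C) as cytosine, so a read that still carries C at a site counts as unconverted. There were no replicates. Every comparison between the lines is therefore one of 2 libraries, and the variation between cultures is unknown.

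The scanning ribosome enters an mRNA at its cap and moves along the 5′UTR until it meets the start codon, where the initiator tRNA pairs with it and the initiation factors leave. The bases around the start codon, known as the Kozak context, favor recognition when a purine stands before the codon and a G follows it. m5C in mRNA is written mainly by NSUN2 and NSUN6 of the NSUN methyltransferase family and is bound by proteins such as ALYREF and YBX1. Bisulfite can also fail to convert cytosines that are paired in stable RNA structure, which GC-rich 5′UTRs form readily.

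Window sites carried 3851452 counts in MCF10A cells and 1893255 in MDA-MB-468 cells, with a median coverage of 20 and 18. All kept sites together had a nonconversion rate, the share of unconverted counts, of 1.99% and 1.81%. A site was called m5C when its unconverted share exceeded this background in a one-sided Fisher's exact test with a Benjamini-Hochberg adjusted p under 0.05 over all kept sites. With a coverage of 20, a call needed 5 unconverted reads for MCF10A and 4 for MDA-MB-468, a ratio of 25% and 20%, so lower levels were not detectable at this depth. The keratin genes KRT8, KRT18 and KRT5, which mark epithelial cells, had kept sites in both libraries. EPCAM and CDH1, which also mark epithelial cells, had none in MCF10A and 175 and 108 in MDA-MB-468. EGFR, known to be abundant in MDA-MB-468, had 149465 counts there and 13249 in MCF10A. PTPRC of leukocytes and HBB of red cells had none in either line. COL1A1 of fibroblasts had 4189 counts in MDA-MB-468 and none in MCF10A, and PECAM1 was not analysed here.

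Several windows carried m5C on almost every cytosine of a stretch, and their sequences show what these stretches look like. Each is printed 5′ to 3′ along the mRNA, written with t for u, as 30 nt of GRCh37 chosen as the part of the window with the most m5C calls over both lines. Capital letters mark cytosines called m5C, and all other bases are in lower case. FTH1, the ferritin heavy chain that stores iron, is shown at -47 to -18 (chr11:61734915-61734944, minus strand), with identical calls at all 19 cytosines in both lines.
FTH1 in both lines: CgCCgCgCagCCaCCgCCgCCgCCgCCgCC
GNAS, which encodes the stimulatory G protein alpha subunit, is shown at -30 to -1 (chr20:57466752-57466781, plus strand) with 19 and 15 of 20 cytosines called.
GNAS in MCF10A: CggCCgcgCCCCgCCgCCgCCgCCgCCgCC
GNAS in MDA-MB-468: cggccgcgcCCCgCCgCCgCCgCCgCCgCC
RPLP2, which encodes an acidic protein of the ribosomal stalk, is shown at -33 to -4 (chr11:810008-810037, plus strand) with all 17 called.
RPLP2 in both lines: ttCtCCgCCgCCtCCgCCgCagaCgCCgCC
EIF1, the initiation factor that guards the choice of the start codon, is shown at -50 to -21 (chr17:39845241-39845270, plus strand) with all 15 called.
EIF1 in both lines: gCCgCCgCCttCCgCaggCCgtttCCaCCg
FAM50A is shown at -34 to -5 (chrX:153672549-153672578, plus strand) for MDA-MB-468, where 19 of 20 cytosines were called. MCF10A kept 2 cytosines of it.
FAM50A in MDA-MB-468: gcCCgCCgCCgCCgCCgCCgCCgCCgCCgC

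A smaller set had m5C in the first codons of the coding sequence, in ITGA3 there alone and in B2M and TNFAIP2 on both sides of the start codon. ITGA3, the integrin alpha 3 subunit that binds laminin, is shown at 6 to 35 (chr17:48133809-48133838, plus strand) with 21 and 16 of 21 cytosines called.
ITGA3 in MCF10A: CCCCggCCCCagCCgCgCgCCCCgCgCCCC
ITGA3 in MDA-MB-468: CCCCggCCCCagCCgcgcgCCCCgCgCccc
B2M, the light chain of MHC class I, is shown at 5 to 34 (chr15:45003749-45003778, plus strand) with all 12 called.
B2M in both lines: CtCgCtCCgtggCCttagCtgtgCtCgCgC
TNFAIP2 is shown at -18 to 12 (chr14:103592777-103592806, plus strand), a stretch that holds the start codon between its calls, with 5 and 6 of 9 called.
TNFAIP2 in MCF10A: gcagagtcagaggCctCCatgtcggaggCC
TNFAIP2 in MDA-MB-468: gcagagtcagaggCCtCCatgtcggaggCC
Windows with the same hexamer GCCGCC but no call are shown for contrast, taken as those with the most upstream counts in MCF10A. S100A6, a calcium-binding protein gene, is shown at -36 to -7, a stretch that crosses an intron between chr1:153507822 and chr1:153508439 on the minus strand. Its 18 cytosines had 1.65% of counts unconverted in MCF10A cells and 4.05% in MDA-MB-468 cells. MT2A, a metallothionein gene that binds zinc and copper, is shown at -30 to -1 (chr16:56642538-56642567, plus strand), where 15 cytosines had 0.711% unconverted in MCF10A and none were kept in MDA-MB-468.
S100A6 in both lines: gccgcctccctaccgctccaagcccagccc
MT2A in MCF10A: tcccgactctagccgcctcttcagctcgcc

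Cytosines before the start codon were unconverted more often than those after it in both lines, and the share called m5C was also higher upstream. In the window as a whole, 1796 sites were called m5C in MCF10A, 1.996% of its sites, against 0.96% of all kept sites in that library. In MDA-MB-468, 1036 sites were called, 1.80% of its sites, against 0.84% of all kept sites. Upstream of the start codon, MCF10A had 1119 m5C sites of 41850 (2.67%, 95% Wilson interval 2.52% to 2.83%) and a nonconversion rate of 2.92%. Downstream it had 677 of 48106 (1.41%, 1.31% to 1.52%) and a rate of 2.13%. MDA-MB-468 had 628 of 26305 upstream (2.39%, 2.21% to 2.58%) with a rate of 2.87%, and 408 of 31219 downstream (1.31%, 1.19% to 1.44%) with a rate of 2.12%. The upstream over downstream ratio of the share called was 1.90 (95% interval 1.73 to 2.09) in MCF10A and 1.83 (1.61 to 2.07) in MDA-MB-468. The ratio of the nonconversion rates was 1.37 (1.35 to 1.39) and 1.35 (1.33 to 1.38). These intervals cover counting error only and are too narrow, since neighboring sites share reads and PCR copies cannot be told from molecules.

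Some of this ratio came from a pair of transcripts. Without FTH1 and GNAS, the ratio of the nonconversion rates was 1.21 in MCF10A cells and 1.26 in MDA-MB-468 cells. With each transcript weighted equally it was 1.19 and 1.26. Once the m5C sites themselves were left out, the remaining sites gave 1.10 and 1.17, so the uncalled cytosines also leaned upstream, by less.

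The shares of the upstream and downstream bins were apart in both lines, with no steady slope within either side. In bins of 10 nt, the share called in MCF10A lay between 2.23% and 3.11% in the 5 upstream bins and between 1.30% and 1.58% in the 5 downstream bins. MDA-MB-468 gave 2.22% to 2.52% upstream and 1.03% to 1.47% downstream. The difference between the sides began a few bases before the start codon, where the share was already lower. Upstream bins resembled the remainder of the 5′UTR, in which 2.57% of MCF10A sites and 2.31% of MDA-MB-468 sites were called. Downstream bins stayed above the remainder of the coding sequence, at 0.579% and 0.528%, and above the 3′UTR, at 0.837% and 0.745%.

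**Figure D1:**
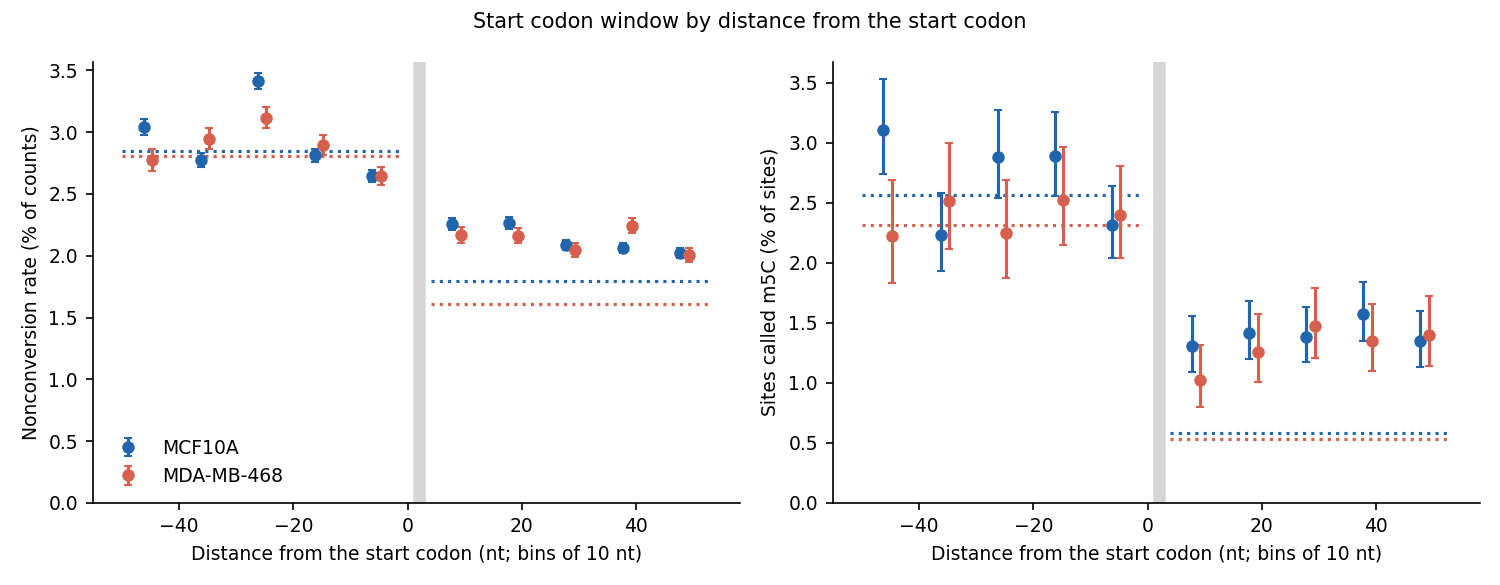
Nonconversion rate (left, percent of counts) and share of sites called m5C (right, percent of sites) in bins of 10 nt against the distance from the start codon, with 95% Wilson intervals; points are shifted sideways for legibility, the grey bar marks the start codon and the dotted lines give the 5′UTR (left) and coding sequence (right) beyond the window. The share called falls from 2.32% in the last upstream bin to 1.30% in the first downstream bin in MCF10A, and from 2.40% to 1.03% in MDA-MB-468.

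The bases that touch the start codon had a lower share called than their neighbors, but their sequence contexts also differ. In MCF10A, 37 of 2961 cytosines at -3 to -1 were m5C (1.25%, 0.908% to 1.72%), against 187 of 6699 at -10 to -4 (2.79%, 2.42% to 3.21%). In MDA-MB-468 the counts were 25 of 1908 (1.31%, 0.889% to 1.93%) and 121 of 4185 (2.89%, 2.42% to 3.44%). At 4 to 6, 22 of 2649 (0.830%) and 15 of 1719 (0.873%) were m5C, and at 7 to 13 the shares were 1.49% and 1.09%. Position -3, a purine in most mRNAs, held a cytosine in 205 kept windows of MCF10A, with no m5C (interval 0% to 1.84%). In MDA-MB-468 it held a cytosine in 132, with 0.758% called. Cytosine is rare at this position and at 4, so the precision there is low. A cytosine at -1 precedes the A of ATG, so it cannot lie in CCG or GCC, which had the highest upstream shares. Upstream contexts with C before A, -1 included, had 0.612% to 1.67% called in MCF10A and 0.859% to 1.72% in MDA-MB-468. Whether the lower share next to the start codon goes beyond its sequence context was not tested.

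Downstream calls leaned to the second codon position by a small margin. In MCF10A, 1.23% of cytosines at the first, 1.65% at the second and 1.36% at the last codon position were called, and in MDA-MB-468 1.25%, 1.45% and 1.23%. The intervals of the first and second position were apart in MCF10A (1.06% to 1.41% and 1.46% to 1.86%) and overlapped in MDA-MB-468. Windows were then sorted by the main features of the Kozak context, a purine at -3 and G at 4. Upstream, windows with both features had 2.42% of sites called in MCF10A cells and 2.20% in MDA-MB-468 cells, those with the purine only 2.92% and 2.71%, those with neither 3.77% and 2.40%, and those with G at 4 only 1.89% and 1.54%. The last class was the lowest in both lines, but its intervals (1.44% to 2.48% and 1.06% to 2.23%) overlapped those of windows with both features. Upstream sites within 50 nt of the annotated cap site had 1.76% called in MCF10A cells and 2.65% in MDA-MB-468 cells, against 2.83% and 2.35% farther from it.

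Cytosines in CCG or GCC had a higher share called than other cytosines on both sides of the start codon. In MCF10A, 5.18% (4.79% to 5.60%) of these sites were called upstream and 2.73% (2.43% to 3.06%) downstream. In MDA-MB-468 the shares were 4.43% (3.98% to 4.92%) and 2.61% (2.26% to 3.01%). All other trinucleotides together gave 1.73% upstream against 1.04% downstream in MCF10A, and 1.60% against 0.935% in MDA-MB-468. CCG alone reached 5.58% and 5.08% upstream, and 2.85% and 2.64% downstream. CCG and GCC made up 27.4% of upstream and 21.5% of downstream sites in MCF10A, yet held 53.1% and 41.8% of the m5C sites. Counts restandardised to equal contexts on both sides still gave nonconversion ratios of 1.31 and 1.29.

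The hexamer GCCGCC was chosen after the printed windows of FTH1, GNAS, RPLP2, EIF1 and FAM50A had shown it, and was counted in the 50 nt before the start codon of windows whose 5′UTR fills them. Only the mRNA strand was searched, and GCCGCC is not its own reverse complement. It occurred in 8.85% of 15885 annotated windows, in 16.0% of the 3152 windows with upstream sites in MCF10A and in 16.6% of 2036 in MDA-MB-468. Of the windows with upstream m5C, 84 of 238 held it in MCF10A cells (35.3%) and 47 of 124 in MDA-MB-468 cells (37.9%). The share of sites called was 5.69% in windows with the hexamer against 1.92% without it in MCF10A, and 5.37% against 1.56% in MDA-MB-468. Those windows are themselves part of these counts. Without EIF1 and the transcripts with the most m5C sites in either line, 13 genes in all, the shares were 4.52% against 1.74% and 3.25% against 1.29%. A match is a description of the sequence. Most windows with the hexamer, S100A6 and MT2A among them, had no m5C.

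Base composition and predicted pairing moved with the calls on both sides of the start codon. In the quartile of transcripts with the highest GC content of the window, above 72.2%, 4.63% of upstream and 2.54% of downstream sites were called in MCF10A, and 3.64% and 2.58% in MDA-MB-468. In the second quartile, from 59.2% to 66.0% GC, the shares were 1.28% and 0.648%, and 1.24% and 0.466%. The lowest quartile was not lower still, with 1.60% and 1.34% in MCF10A and 1.97% and 1.14% in MDA-MB-468. Sites paired in the structure predicted by RNAfold had 7.08% called upstream and 4.60% downstream in MCF10A, against 1.97% and 0.883% for unpaired sites. In MDA-MB-468 the paired sites had 4.82% and 4.52% called, and the unpaired sites 1.99% and 0.801%. Among unpaired sites the upstream share thus remained more than the downstream share, by a ratio of 2.23 in MCF10A cells and 2.48 in MDA-MB-468 cells. The part of residual RNA structure in the calls was not tested, because the prediction stands for no measured structure.

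**Figure D2:**
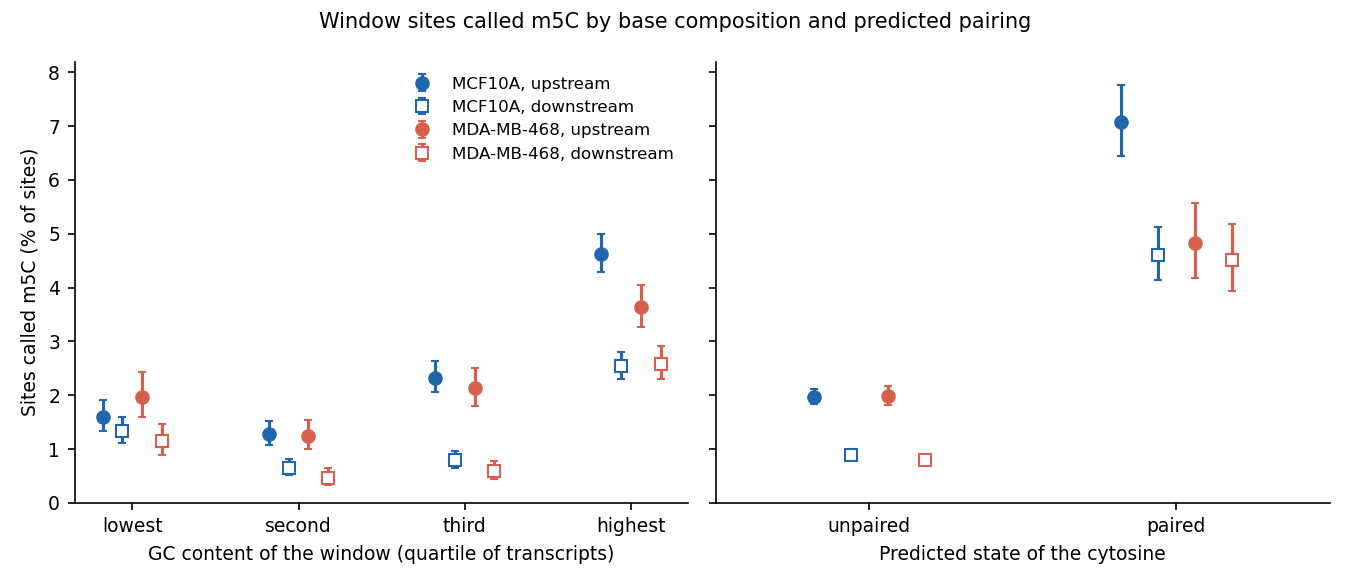
Share of window sites called m5C (vertical axis, percent of sites, with 95% Wilson intervals) by quartile of the GC content of the window over transcripts (left) and by the predicted state of the cytosine (right), for upstream sites (filled circles) and downstream sites (open squares) of MCF10A in blue and MDA-MB-468 in red. Upstream sites lie above downstream sites of the same line in each group, with overlapping intervals in the lowest quartile of MCF10A and among paired sites of MDA-MB-468, and paired sites reach 7.08% in MCF10A upstream.

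A minority of transcripts held the m5C of the window. In MCF10A, 381 of 4806 transcripts (7.93%) had at least 1 m5C site, 249 of 3489 with upstream sites had it upstream (7.14%), and 163 of 4285 with downstream sites had it downstream (3.80%). In MDA-MB-468 the counts were 213 of 3296 (6.46%), 131 of 2234 (5.86%) and 105 of 2888 (3.64%). In MCF10A and MDA-MB-468 in turn, m5C was upstream alone in 218 and 108 transcripts, downstream alone in 132 and 82, and on both sides in 31 and 23. Thus 31 of 163 and 23 of 105 transcripts with downstream m5C had it upstream too. Of all transcripts with upstream sites, 7.14% and 5.86% had it there. Whether calls on the 2 sides go together beyond shared reads and coverage was not tested. The 46 transcripts of MCF10A with 10 or more m5C sites held 37.5% of all of them, and the 27 of MDA-MB-468 held 40.8%. Of the m5C sites, 90.9% and 90.5% had another within 10 nt. Their median methylation ratio, the share of unconverted reads at a site, was 32.0% in MCF10A cells and 30.8% in MDA-MB-468 cells. Among the 1181 transcripts of MCF10A with 200 counts on each side, the upstream rate was the higher one in 57.3%, and the median rates were 1.64% upstream and 1.44% downstream. In 712 transcripts of MDA-MB-468 it was the higher one in 56.5%, with medians of 1.57% and 1.31%.

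FTH1 had the best covered m5C sites of the window in MCF10A. Its 28 upstream cytosines had 19.2% of 21983 counts unconverted in MCF10A cells and 28.0% of 4228 in MDA-MB-468 cells, while its downstream cytosines had 1.56% and 4.12%. The ratio rose and fell along the repeat: from 5.04% at -50 it reached 51.2% at -31, 302 of 590 reads, and was 11.1% at -18 in MCF10A. In MDA-MB-468, 27 of 28 upstream sites were called, with a highest ratio of 73.8%. GNAS had 29 and 24 m5C sites of 33, with ratios of 5.48% to 54.3% in MCF10A and 10.8% to 45.6% in MDA-MB-468. Its upstream rates of 23.7% and 20.6% stood against 1.87% and 1.76% downstream. FTH1 and the ribosomal protein genes have many processed pseudogenes, so the placement of their reads, and with it their values, is uncertain to an extent the counts do not show.

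The called sites of EIF1 and RPLP2 spanned a narrower range of ratios. In EIF1, 15 of 17 upstream sites were called in each line. Their ratio lay between 22.8% and 50.8% in MCF10A and between 30.8% and 60.9% in MDA-MB-468. EIF1 was not flat in MCF10A, falling from 50.8% at -48 to 22.8% at -22, and its uncalled sites at -8 and -3 had 2.78% and 0%. Its own start codon has neither a purine at -3 nor G at 4. Downstream, EIF1 had 0.402% of 249 counts unconverted in MCF10A cells and 7.69% of 91 in MDA-MB-468 cells, with no call. RPLP2 had all 22 upstream sites called in MCF10A, between 16.7% and 26.5%, and 17 of 22 in MDA-MB-468, between 14.7% and 40.0%. The uncalled upstream sites of RPLP2 in MDA-MB-468, at -47 to -34, had 6.25% to 8.70%. The 23 downstream sites of RPLP2 had rates of 1.62% and 1.09%, so the change came within a few bases of the start codon, where the mRNA also crosses an exon junction.

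ITGA3 and NHERF1 ran the other way. ITGA3 had no m5C at its 26 upstream sites, where 0.914% of 7437 counts were unconverted in MCF10A cells and 4.02% of 473 in MDA-MB-468 cells. Of its 27 downstream sites, 24 and 16 were called, and the rates were 22.0% and 31.7%. NHERF1, a scaffold protein beneath the epithelial membrane, had rates of 2.80% upstream and 19.1% downstream in MCF10A, and 0.878% and 14.5% in MDA-MB-468, at a median coverage of its m5C sites of 17 and 158. Its calls fell on 20 to 37 in MCF10A and on 20 to 40 in MDA-MB-468, and in both lines the cytosines between the calls at 26 and 34 stayed uncalled. All of these m5C sites of NHERF1, 7 and 8, were paired in the structure predicted by RNAfold, so its calls end when paired sites are left out. For ITGA3, 3 of 24 and 3 of 16 were paired in that structure. In the centroid structure, another RNAfold prediction, 10 of 24 and 9 of 16 were paired. B2M had m5C on both sides, at 23 of 24 kept sites in MCF10A and at all 22 in MDA-MB-468, with window rates of 15.8% and 34.6%.

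**Figure D3:**
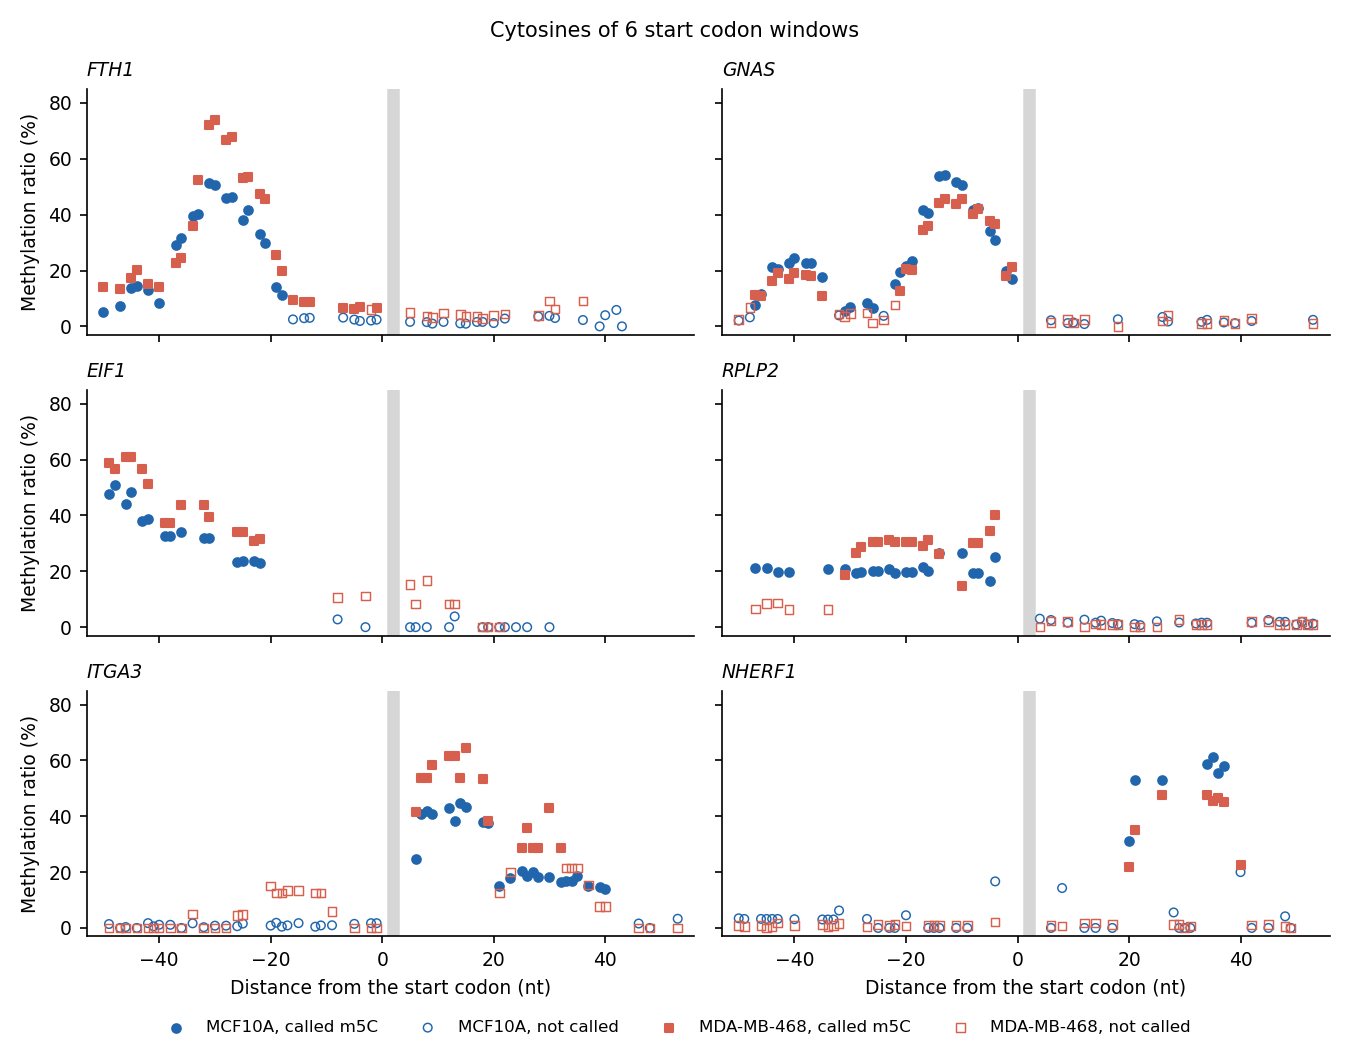
Methylation ratio (vertical axis, percent of reads unconverted at a cytosine) against the distance from the start codon in nt (horizontal axis) for the windows of 6 genes; blue circles are MCF10A and red squares MDA-MB-468, filled where the site was called m5C, and the grey bar marks the start codon. The calls of FTH1, GNAS, EIF1 and RPLP2 lie upstream, up to 73.8% in FTH1, and those of ITGA3 and NHERF1 lie downstream.

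Most windows had no m5C, and several of those with the most counts were among them. Of windows with 200 counts, 11.1% held m5C for MCF10A, against 7.93% of all its windows with sites. For MDA-MB-468 these shares were 9.82% and 6.46%. Deeply covered sites were called more often. Upstream in MCF10A, 4.14% were called from a coverage of 100 upwards, against 2.18% below 20. The MDA-MB-468 library gave 5.12% and 1.625%. FN1, the fibronectin gene, had the most counts of MCF10A, 201221, and a rate of 1.46%. Its 7 m5C sites had ratios of only 3.26% to 4.20%, which such coverage brings past the threshold. S100A6 with 70304 counts, TGFBI with 40439, RPL8 with 33325 and MT2A with 32694 had none, at rates of 1.32%, 0.997%, 1.62% and 0.930%. In MDA-MB-468, CRABP2, KRT19 and ACTB had none, at rates of 1.14%, 2.01% and 1.08%. TNFAIP2 with 13032 counts had 6 m5C sites there and 5 in MCF10A, on both sides of its start codon, at 12.1% to 14.2% and 15.0% to 21.6%. All of them were predicted as paired, so none is left without paired sites. IFI27 with 14383 counts in MDA-MB-468 had 3 m5C sites at -11 to -9, at 4.70% to 5.98%. The lowest rates among windows with 10 sites and 1000 counts were those of F3, ANLN and ADD1 in MCF10A (0.153%, 0.400% and 0.430%) and, for MDA-MB-468, of EPS8L2, KLK5 and DSP (0.394%, 0.414% and 0.420%). F3, the tissue factor gene, had 75.7% GC in its window, above the limit of the highest quartile.

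Genes listed for start codon recognition, with repressors of cap binding among them, were read as targets themselves. Of these 46 listed genes, 30 had window sites in MCF10A cells and 19 in MDA-MB-468 cells. EIF1 had m5C in both lines. EIF4EBP1 and EIF4EBP2, repressors that bind the cap-binding factor eIF4E, had it in MCF10A. EIF4EBP2 had 6 sites at -49 to -42 with ratios of 54.5% to 75% on a coverage of 11 or 12, and EIF4EBP1 had 1 at -16 with 17.2%. Of these, 5 of the 6 and the 1 were predicted as paired. EIF4EBP2 had no kept window site in MDA-MB-468. Among genes with 200 window counts, 3 of 22 in MCF10A cells (13.6%) and 1 of 11 in MDA-MB-468 cells (9.09%) had m5C, against 11.1% and 9.82% of all such transcripts. The median rate of the list was 2.22% and 0.965%, against 1.64% and 1.45% over all. Ribosomal protein genes had m5C in 5 of 56 measured genes in MCF10A (among them RPLP2, RPS2, RPL5 and RPL37A) and in 5 of 48 in MDA-MB-468 (RPLP2, RPS2, RPL5, RPS16 and RPS20). With 200 counts these were 10.9% and 14.3% of the list, and its median rates were 1.63% and 2.11%. RPS2 was the member with several sites downstream, 7 of 15 in MCF10A at 11.6% to 15.2%, and 1 of 14 in MDA-MB-468 at 24.1%. Of 14 genes that write, read or erase m5C, 3 had window sites in each line and none had an m5C site there. Over all transcripts with window sites, m5C was present in only 7.93% (MCF10A) and 6.46% (MDA-MB-468). With 3 genes, its absence therefore cannot be told from the general share.

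Start codons other than ATG gave cytosines within the codon itself. In MCF10A, 9 CTG codons (RNF187, TXNRD3, VEGFA, MYC, GTF3A, POLGARF, PANK2, TUG1 and DDX17) had 9 of 528 reads unconverted at the C, 1.70% (0.899% to 3.21%). In MDA-MB-468, 6 codons had 2 of 204, 0.980% (0.269% to 3.50%). None was called, and DDX17, an RNA helicase gene with the deepest of them, had 3 of 289 in MCF10A cells and 0 of 83 in MDA-MB-468 cells. With 3 counts allowed for a count of 0, rather than a Wilson interval, the latter leaves room for a share of up to 3.61%. GTF3A, which encodes transcription factor IIIA, had 6 m5C sites at -32 to -23 in MCF10A with ratios of 22.9% to 40.0%, 5 of them predicted as paired. TEAD3 had 2 in MDA-MB-468 at 36 and 45, with 28.1% the higher ratio, both predicted as paired.

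The overlap of the m5C between the lines was partial, for single sites and for windows. Of 42851 sites covered in both, 1110 were m5C in MCF10A cells and 778 in MDA-MB-468 cells, and 519 in both, 46.8% of the first and 66.7% of the second. Across the 18486 sites with a coverage of 20 in each line, Pearson's r between the ratios was 0.639 and Spearman's rho 0.242. Across 1407 transcripts with 200 window counts in each line, Pearson's r of the rates was 0.517 and rho 0.410. Both are descriptions across sites or transcripts that share 1 library per line, an annotation and a base composition. Of these transcripts, 198 and 141 had m5C in the window, 88 of them in both lines.

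**Figure D4:**
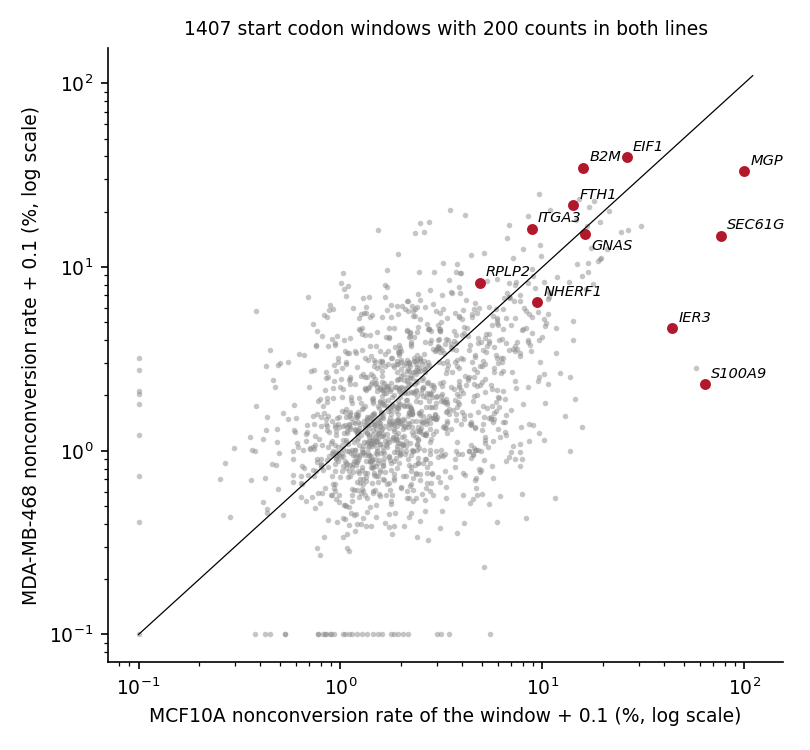
Nonconversion rate of the start codon window in MCF10A (horizontal) and MDA-MB-468 (vertical), each in percent with 0.1 added on a log scale, for 1407 transcripts with 200 window counts in each line; the line marks equal rates, and some of the windows named in the text are red and labeled. FTH1, EIF1, B2M, ITGA3 and RPLP2 lie above the line, and MGP, SEC61G, IER3 and S100A9 far below it.

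A site by site comparison called 111 window sites different between the libraries, 103 of them lower in MDA-MB-468 and 8 higher, 0.259% of the sites covered in both, against 0.0796% of all nuclear exonic sites. Each site was tested two-sided by Fisher's exact test, with Benjamini-Hochberg adjustment over those 810403 sites. All 111 sites lay in 13 transcripts. IFI27, induced by interferon, had 16, and SEC61G, a subunit of the endoplasmic reticulum translocon, IER3, an early response gene, and S100A8, one chain of calprotectin, had 15 each. MGP, which inhibits calcification, and S100A9, the partner of S100A8, had 13 each, S100P had 9 and KRT19 had 5, all lower in MDA-MB-468. BST2 and S100A14 had 1 each. Those higher in MDA-MB-468 were 5 sites of FTH1, 2 of MAP2K2 and 1 of TUBB4B. Downstream of the start codon 78 sites were lower and none higher, and upstream 25 were lower and 8 higher. The lean to lower values was not particular to the window. Over all nuclear exonic sites covered in both lines, 525 were lower in MDA-MB-468 and 120 higher.

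At the lower sites, the lines differed mainly in the number of converted reads. The median site had 11 unconverted and 6 converted reads in MCF10A, and 13 unconverted and 336 converted in MDA-MB-468. The unconverted counts of the libraries lay within 2-fold of each other at 75 of the 103 sites. At position 53 of S100A9, 18 of 23 reads were unconverted in MCF10A cells and 19 of 796 in MDA-MB-468 cells (78.3% and 2.39%, adjusted p 4.17e-18). At position 16 of SEC61G these were 22 of 24 and 18 of 117 (91.7% and 15.4%, adjusted p 3.60e-09). At position 16 of MGP they were 20 of 20 and 14 of 53 (100% and 26.4%, adjusted p 8.99e-06). Whether fewer reads in MCF10A stand for fewer cells with these transcripts or for less RNA per cell cannot be told apart. In FTH1, MCF10A was the deeper library, with a median of 322 unconverted and 398 converted reads in MCF10A and 97 and 45 in MDA-MB-468 at its 5 sites.

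Some windows of MCF10A had few or no converted reads. LCN2, which encodes the iron carrier lipocalin 2, had 120 of 120 counts unconverted, MGP 368 of 370, KRT19 47 of 52 and IFI27 153 of 177. These counts came from 12, 20, 5 and 16 sites, all of which were also kept in MDA-MB-468. At the same sites MDA-MB-468 had 130 of 227, 278 of 714, 46 of 2818 and 223 of 10625 counts unconverted. The converted reads thus lay almost all in MDA-MB-468, while the unconverted counts of LCN2 and KRT19 were close between the libraries. These windows were thinly covered in MCF10A, with a median coverage between 10 and 21 at their m5C sites on either side. When reads were thinned to the lower coverage at each site, the median of 5 draws was 17 differing sites, from 14 to 19, and 63 sites differed where each line had a coverage of 20 or more. Without the 13 transcripts, 2.51% of upstream and 1.22% of downstream sites were m5C in MCF10A, and 2.11% and 1.25% in MDA-MB-468.

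**Figure D5:**
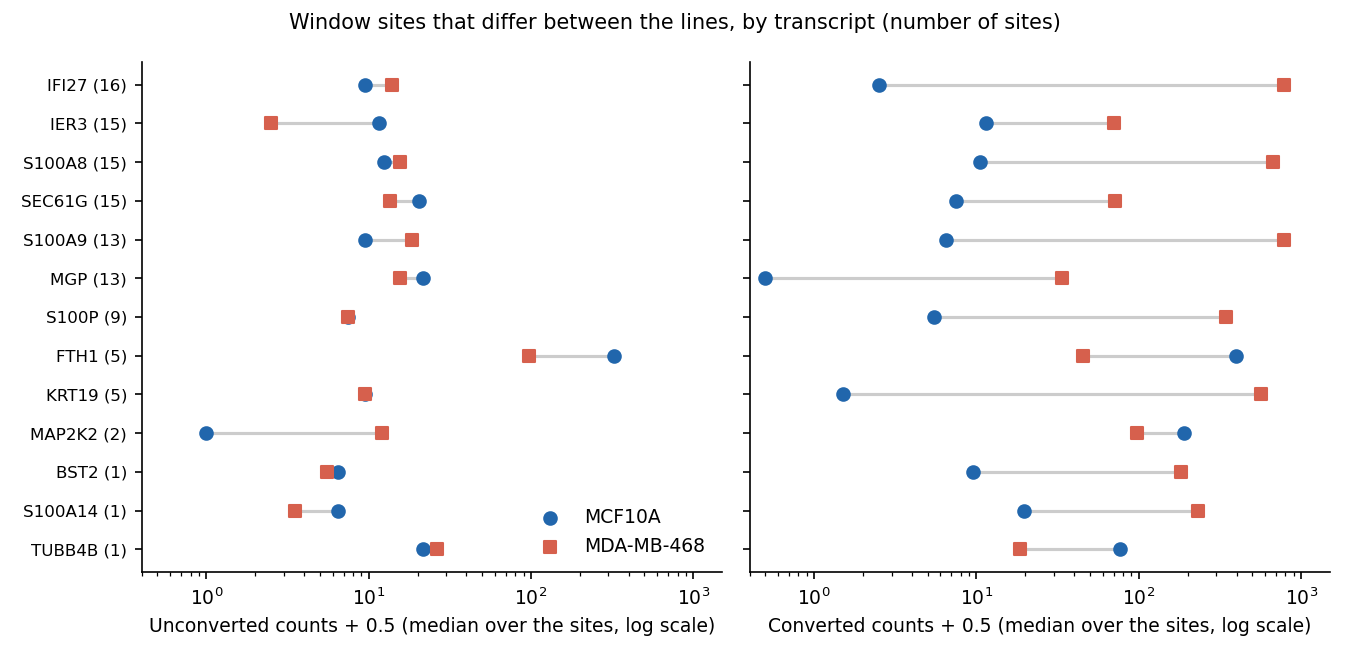
Median unconverted (left) and converted (right) counts, with 0.5 added on a log scale, over the window sites that differed between the lines in each of 13 transcripts, with the number of sites in parentheses; blue circles are MCF10A and red squares MDA-MB-468. Converted counts of IFI27, S100A8, S100A9, S100P and KRT19 lie far apart, while their unconverted counts lie close together.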

How the data were processed

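The authors deposited, for each cytosine, the counts of unconverted and of converted reads, without normalization or p-values. The submitters' processing notes name Trim Galore, Bismark and hg19, and the methods name MeRanTK for alignment and calling, with no version given in the sources used here. The files start at a coverage of 5. A site was kept from a coverage of 10 upwards if it fell on a basic exon of GENCODE (release 44) or on the mitochondrial chromosome, and window members were taken from the nuclear sites. The members, gene lists and tests were chosen with earlier results of these data known. 91 transcripts had no annotated start codon, and 17 lay in masked sequence. The deposited totals were 76098976 and 90960018 counts, and the kept totals 60580227 and 42429746.

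Calls and differences used Fisher's exact tests per site with Benjamini-Hochberg adjustment at 0.05, and QNB, which the methods name, was not used. Shares carry 95% Wilson intervals. Structures came from RNAfold of ViennaRNA 2.7.2 at 70 degrees with 300 nt beyond the window and a pairing distance of 150 nt (maximum expected accuracy, parameter 0.1), not from full-length transcripts, and served as an alternative. Named genes were those with the most m5C sites, the best covered m5C sites with a ratio of at least 20%, the largest differences, the most counts, the lowest rates, other start codons than ATG, or m5C among listed genes. S100A6 and MT2A were printed, and the other transcripts with differing sites named, after their values were seen. Scripts ran on Python 3.11.15, numpy 2.4.6, scipy 1.17.1, pandas 2.3.3, pysam 0.24.0 and matplotlib 3.10.9, and the tests were tested on simulated data. Some sequences and 1 gene name are not reported here.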

Additional observations from a re-analysis of the deposited data

How the results depend on the processing

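The upstream side stayed above the downstream side under all alternatives run, and 44 of 76 values stayed within 1.5-fold (counts) or within their interval (ratios). The m5C sites of the window numbered 1189 and 852 in MCF10A at coverage minimums of 20 and 30, and 490 in MDA-MB-468 at 30. Without sites paired in the predicted structure they were 1075 and 666, and without those paired in the centroid structure 829 and 511. Ratios of the nonconversion rate were 1.39 and 1.45 in MCF10A at coverage minimums of 20 and 30. In MCF10A and MDA-MB-468 in turn they were 1.40 and 1.42 without paired sites, 1.49 and 1.51 with the centroid structure, 1.44 and 1.38 for 5′UTRs of at least 50 nt, 1.21 and 1.26 without FTH1 and GNAS, 1.19 and 1.26 with equal weight per transcript, 1.31 and 1.29 at equal contexts, and 1.10 and 1.17 without m5C sites. Without FN1 the ratio was 1.42 in MCF10A. Ratios of the share called were 2.23 and 2.48 without paired sites and 2.49 and 2.86 with the centroid structure, and in MCF10A 2.20 at a coverage of 30 and 2.18 for 5′UTRs of at least 50 nt. The sites that differed between the lines fell to 63 at a coverage of 20 and to 17 with thinned reads. The centroid structure and the removal of FTH1 and GNAS were chosen after seeing the data. Other causes of these shifts were not tested. No paired analysis was possible because each line has 1 library. At low coverage only high ratios can be called, so 40% of reads must be unconverted at a coverage of 10.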
